A study of Caenorhabditis elegans with 4 samples.

Results

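The subject is tight clusters of narrow HTP-3 peaks in the combined peak list of a chromatin immunoprecipitation sequencing (ChIP-seq) experiment in Caenorhabditis elegans. Peaks were chained along each nuclear chromosome wherever the start of the next peak minus the end of the previous one was under 500 bp. A chain counted as a cluster when it held 3 or more peaks and every peak was under 1000 bp wide. The rule found 397 clusters with 1437 peaks, which is 12.3% of the 11713 nuclear peaks in the list. They were set beside 6795 single narrow peaks, each under 1000 bp wide and with no neighbour within 500 bp, which made up 58.0% of the list. The members were chosen by peak position and width in the combined list, so size, spacing and width below are a description. The same holds for comparisons with the replicate lists, because the combined list is named for the experiment as a whole and appears to rest on the same libraries. No test was made of any difference, because an exact two-sided sign-flip permutation test over 2 replicate lists cannot give a p below 0.5.

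HTP-3 is a HORMA-domain protein of the chromosome axis, the protein core along which chromatin loops are arranged during meiosis. In C. elegans it is needed for meiotic double-strand breaks and for loading the other HORMA-domain axis proteins, and thereby for synapsis of homologous chromosomes. It acts in germ cells, which in the adult hermaphrodite lie in the gonad among somatic tissues that do not undergo meiosis. A peak in such data is a stretch in which immunoprecipitated DNA passed the threshold of the peak caller.

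The study has 4 samples: HTP-3 ChIP libraries numbered 1 and 2, and input DNA libraries with the same numbers, all from hermaphrodites of strain fem-2(b245), genotype fem-2(b245)III. The stage is labelled as young adults with a germline, grown at 20 °C, while the growth protocol describes the harvest of gravid adults. The allele is carried by ChIP and input samples alike; fem-2 promotes male fates, and there was no wild-type group. Whole worms were used, so germline and soma were not separated, and nothing in the labels tells whether separate cultures gave the replicates, so their spread may be technical. The lists hold no read counts, and sequencing depth is unknown. The replicate lists stand apart in peak width, with medians of 478 bp in replicate 1 and 1455 bp in replicate 2, so each overlap is given for both.

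Most clusters were small. Of the 397 clusters, 253 (63.7%) held 3 peaks, 85 (21.4%) held 4 and 37 (9.32%) held 5. The other 22 (5.54%) held 6 or more, and the largest held 11. The span from the first base to the last had a median of 1876 bp, with quartiles of 1425 and 2356 bp, and ran from 711 to 9059 bp. The clusters together spanned 798 kb, and their peaks covered 565479 bp, 11.3% of all sequence covered by nuclear peaks. Peaks filled a median of 71.2% of a cluster's span. Cluster peaks had a median width of 336 bp (quartiles 215 and 520 bp), and single narrow peaks one of 270 bp (quartiles 197 and 383 bp).

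Within clusters, the distance from the end of a peak to the start of the next had a median of 202 bp, with quartiles of 106 and 335 bp. It was never under 44 bp. Midpoints of neighbouring cluster peaks lay a median of 603 bp apart, with quartiles of 455 and 753 bp. The spacing was broad, and the distribution covered 214.5 to 1272 bp.

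At its limits the rule cut through a continuous range. The widest cluster peaks were 999 bp (IV, 7546822 to 7547820, score 24.22) and 995 bp (X, 14501900 to 14502894, score 47.16). Among chains of 3 or more that a wide peak kept out, the nearest to the limit had widest peaks of 1005 bp (III, 3894843 to 3895847, score 11.53) and 1006 bp (IV, 6096884 to 6097889, score 61.16). In all, 218 chains of 3 or more peaks held a wide peak and were left out, as were 1029 chains of exactly 2 narrow peaks. Neighbouring peaks 450 to 499 bp apart numbered 200, and those 500 to 549 bp apart numbered 191.

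**Figure D1:**
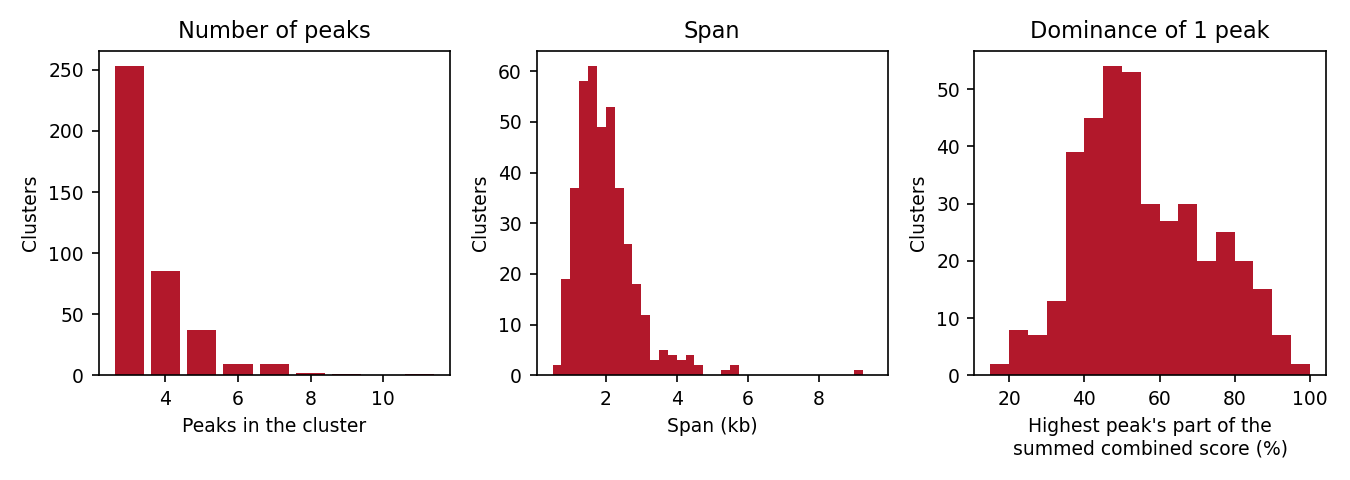
Number of peaks per cluster, span in kb and the part of a cluster's summed combined score that its highest-scoring peak held, in percent, as counts of the 397 clusters. Clusters of 3 peaks make up 253 of the bars' total, spans gather around the median of 1876 bp, and the highest peak's part runs from 17.6% to 96.3%.

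The scores below are the authors' own, of unstated scale, and are compared only within a list. They did not enter the rule. Cluster peaks had a median combined score of 6.69 (quartiles 4.03 and 12.9), against 7.73 (quartiles 4.54 and 15.5) for single narrow peaks and 7.78 for all nuclear peaks. In the highest-scoring quintile of the list lay 15.9% of the cluster peaks (229 of 1437, 95% Wilson interval 14.1 to 17.9) and 17.8% of the single peaks (1209 of 6795, interval 16.9 to 18.7). The lowest-scoring quintile held 25.6% of the cluster peaks (368, interval 23.4 to 27.9) and 19.6% of the single peaks (1335, interval 18.7 to 20.6). These intervals cover counting error only and treat neighbouring peaks as independent, which peaks of 1 cluster are not.

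Score rises with width, and cluster peaks were the wider ones, so both sets were also compared within classes of width. At 200 to 299 bp the median score was 4.86 in clusters (344 peaks) and 7.25 among single peaks (2173 peaks). At 400 to 599 bp it was 10.5 in clusters (307 peaks) and 17.1 among single peaks (1079 peaks). At 600 to 999 bp it was 16.1 in clusters (267 peaks) and 24.4 among single peaks (476 peaks). The cluster median was the lower one in all 5 classes of width, though the quartile ranges overlapped in each. Pairs of narrow peaks also scored under single peaks. Their median lay between those of clusters and single peaks in each class, at 5.54 for 200 to 299 bp and 19.4 for 600 to 999 bp.

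Scores within clusters were uneven, and the values of the highest peak describe that spread, since picking it sets it above the rest. The highest-scoring peak of a cluster had a median score of 18.7 (quartiles 9.78 and 38.6) and a median width of 497 bp. The remaining 1040 cluster peaks had a median score of 5.30 (quartiles 3.51 and 8.08) and a median width of 280.5 bp. The highest peak held a median of 52.8% of its cluster's summed score; in clusters of 3 the median was 55%. The ratio of the highest to the lowest score in a cluster had a median of 4.49 and reached 93.5. In 130 clusters (32.7%, interval 28.3 to 37.5) the highest peak scored at least 3 times the next, and in 135 (34.0%, interval 29.5 to 38.8) it scored under 1.5 times the next.

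The highest peak could lie at any place within a cluster. In the 253 clusters of 3 it was the first peak in 94 (37.2%, interval 31.4 to 43.3), the middle peak in 79 (31.2%, interval 25.8 to 37.2) and the last in 80 (31.6%, interval 26.2 to 37.6). In clusters of 4 or more it lay at an end in 72 of 144 (50%, interval 41.9 to 58.1), where ends make up 42.5% of the peaks. The highest-scoring peak was also the widest in 238 clusters (59.9%, interval 55.1 to 64.7). With only the 50% of the list that scores highest, chained again, the middle peak led in 45.1% of the clusters of 3. Its interval, 32.3 to 58.6, was wide and overlapped the 25.8 to 37.2 of the full list.

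The replicate lists gave different pictures of these sites. Of the 1437 cluster peaks, 373 (26.0%, interval 23.8 to 28.3) overlapped a replicate 1 peak by at least 1 bp, where all nuclear peaks gave 25.5%. In replicate 2 they numbered 1236 (86.0%, interval 84.1 to 87.7), where all nuclear peaks gave 60.6%. Single narrow peaks overlapped replicate 1 in 19.2% (1307 of 6795, interval 18.3 to 20.2) and replicate 2 in 43.6% (2964, interval 42.4 to 44.8). Peaks in pairs of narrow peaks did so in 22.6% for replicate 1 and 77.3% for replicate 2. Peaks in chains with a wide peak gave 53.9% and 91.5%, so a high replicate 2 share was not particular to clusters. Over the replicate lists the share averaged 56.0% ± 42.5 for cluster peaks and 31.4% ± 17.2 for single peaks (SD, n = 2 each). The difference between the sets was 6.72 percentage points in replicate 1 and 42.4 in replicate 2, so the sign was the same in both lists and the size was not. With every replicate peak trimmed to 478 bp around its midpoint, the average for cluster peaks was 27.2%, with a mean ± SD range of 23.6 to 30.9%. The average for single peaks was not computed with trimmed replicate peaks, so the contrast between the sets is unknown there. A broad replicate 2 peak can meet every peak of a cluster, so these overlaps are not independent.

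Peaks of both replicates overlapped 328 cluster peaks (22.8%, interval 20.7 to 25.1), close to the 22.6% of all nuclear peaks, and 16.3% of single peaks (interval 15.4 to 17.2). Overlap with replicate 2 alone was found for 908 cluster peaks (63.2%) and 27.3% of single peaks, where all nuclear peaks gave 38.0% and pairs of narrow peaks 57.3%. Neither replicate had a peak at 156 cluster peaks (10.9%, interval 9.35 to 12.6), where all nuclear peaks gave 36.4% and single peaks 53.4%. With only the 50% of the list that scores highest, 52.2% of cluster peaks were in both replicates. When every replicate peak was trimmed to 478 bp around its midpoint, the share was 10.1%. Neither share was computed for single or all nuclear peaks. Replicate 1 overlap also rose with score among single peaks, from 1.91% under a score of 5 to 96.4% at 40 and above.

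The high share in replicate 2 held for the narrowest cluster peaks. Cluster peaks under 200 bp wide overlapped replicate 2 in 74.6% (284 peaks, interval 69.3 to 79.4), and single peaks of that width in 11.2% (1760 peaks, interval 9.80 to 12.8). Peaks of that width in pairs of narrow peaks were nearer the clusters, at 60.5% (471 peaks, interval 56.0 to 64.8). At 300 to 399 bp the shares were 88.1% in clusters (interval 83.3 to 91.6) and 59.5% among single peaks (interval 56.8 to 62.2). At 600 to 999 bp the order was the other way, with 92.1% in clusters (interval 88.3 to 94.8) and 96.8% among single peaks (interval 94.9 to 98.1). In replicate 1 the shares were close except for peaks under 200 bp, at 5.99% in clusters (interval 3.77 to 9.38) and 0.852% among single peaks (interval 0.517 to 1.40), and for those of 400 to 599 bp, at 39.7% in clusters (interval 34.4 to 45.3) and 51.5% among single peaks (interval 48.5 to 54.5).

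At similar combined score the replicate 2 contrast was again seen among the weaker peaks. Cluster peaks with a score under 5 overlapped replicate 2 in 77.3% (503 peaks, interval 73.5 to 80.8), and single peaks in 17.9% (1992 peaks, interval 16.3 to 19.6). From 10 to under 20 the shares were 97.0% in clusters (interval 94.0 to 98.6) and 58.7% among single peaks (interval 56.1 to 61.3). At 40 and above they were 99.0% in clusters and 99.6% among single peaks. In replicate 1, scores from 20 to under 40 gave 78.9% in clusters (133 peaks, interval 71.3 to 85.0) and 59.8% among single peaks (767 peaks, interval 56.3 to 63.3). Width was not matched here, and cluster peaks were the wider ones in each class of score. Median widths were 213 against 195 bp under a score of 5, and 460.5 against 318 bp from 10 to under 20. What part of these contrasts comes from width, or from a strong neighbour within the same wide replicate 2 peak, was not tested.

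**Figure D2:**
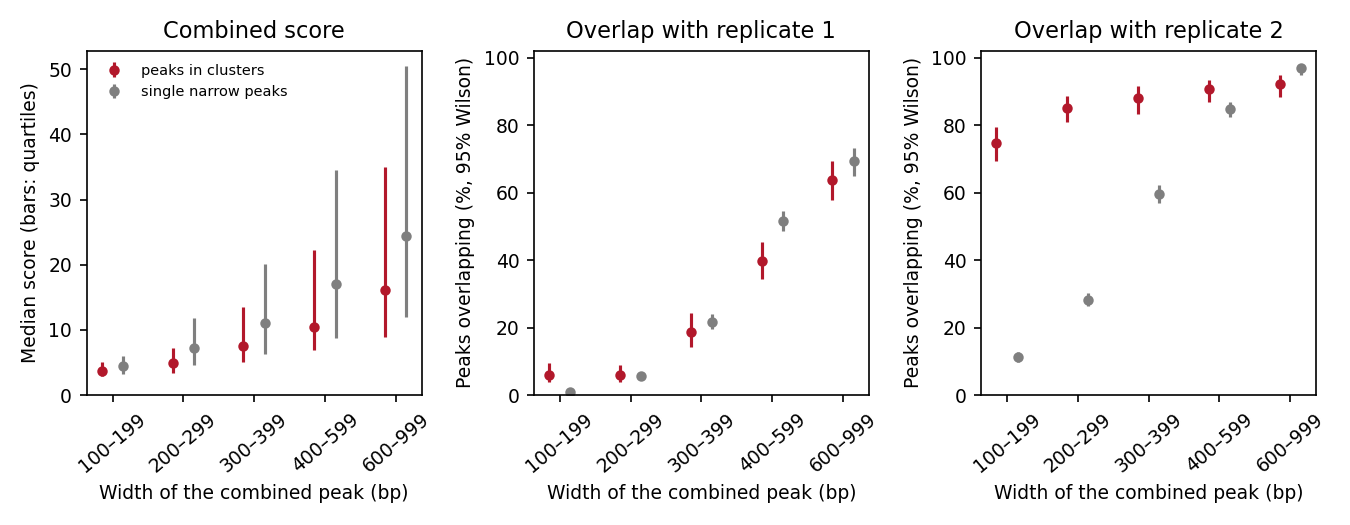
Median combined score with quartiles, and the share of peaks that overlap replicate 1 and replicate 2 with 95% Wilson intervals, for cluster peaks and single narrow peaks in 5 classes of width in bp. Cluster medians lie under single medians in each class, and under 200 bp the replicate 2 share is 74.6% in clusters and 11.2% among single peaks.

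Taken as whole sites, most clusters were 1 broad region in replicate 2. Of the 397 clusters, 278 (70.0%, interval 65.3 to 74.3) lay from first to last base within 1 replicate 2 peak, where 59% of all nuclear peaks, taken peak by peak, did so. Pairs of narrow peaks lay within 1 replicate 2 peak in 69.7% (717 of 1029, interval 66.8 to 72.4), and chains with a wide peak in 76.0% (275 of 362, interval 71.3 to 80.1). In each class of span compared, the share was lower for clusters than for pairs and chains with a wide peak, though the intervals overlapped. For spans of 1000 to under 1500 bp it was 67.4% for clusters (64 of 95, interval 57.4 to 76.0). Pairs of that span gave 78.2% (276 of 353, interval 73.6 to 82.2) and chains with a wide peak 92.9% (13 of 14). For spans of 1500 to under 2000 bp the share was 70.9% for clusters (78 of 110, interval 61.8 to 78.6), 88.5% for pairs (54 of 61, interval 78.2 to 94.3) and 81.8% for chains with a wide peak (36 of 44, interval 68.0 to 90.5). For spans of 2000 to under 3000 bp it was 73.9% for clusters (99 of 134, interval 65.9 to 80.6) and 76.6% for chains with a wide peak (95 of 124, interval 68.4 to 83.2). Chaining under 1000 bp instead of 500 bp gave 44.2% of 652 clusters, and trimming every replicate peak to 478 bp gave 0, since that width is under every cluster's span.

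Replicate 2 had exactly 1 peak on 340 clusters (85.6%, interval 81.9 to 88.8), at most 2 on any cluster, and none on 36 (9.07%, interval 6.62 to 12.3). It had exactly 1 peak on 78.2% of pairs of narrow peaks and 91.2% of chains with a wide peak. It had none on 21.4% of pairs and 2.76% of chains with a wide peak, so clusters lay between these classes. Inside clusters, replicate 2 called the bases between the peaks about as often as the peaks. It covered 83.9% of the 232426 bp in gaps inside clusters, 87.8% of the bases in cluster peaks and 64.9% of the bases in the 500 bp on either side. Replicate 1 covered 27.9% of the bases in cluster peaks, 6.48% of those in gaps and 1.63% of those in the flanks. Around single narrow peaks, replicate 2 covered 57.8% of the peak bases and 34.5% of the 500 bp flanks, and replicate 1 covered 23.9% and 1.19%.

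The replicate 2 peaks that met clusters were broad and ranked high in their list. There were 370 of them, 9.24% of the list, with a median width of 2985.5 bp, against 1221 bp for the 2568 that met a single narrow peak and no cluster. In the highest-scoring quintile of replicate 2 lay 41.6% of those on clusters (154 of 370, interval 36.7 to 46.7) and 11.1% of those on single peaks (284 of 2568, interval 9.90 to 12.3). A wide peak can meet a cluster more easily, and width and score were not separated here. The replicate 1 peaks that met clusters numbered 338, with a median width of 447 bp against 418 bp for those on single peaks only. In the highest-scoring quintile of replicate 1 lay 15.7% (interval 12.2 to 19.9) against 12.2% (interval 10.5 to 14.1). All replicate 1 peaks had a median width of 478 bp and a median score of 169.57. Those on clusters had a median score of 137.53 and those on single peaks only 146.87. Neither set thus ranked high in replicate 1. Where a cluster lay within 1 replicate 2 peak, it took up a median of 58.7% of that peak, which reached a median of 1207 bp beyond the cluster in all.

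**Figure D3:**
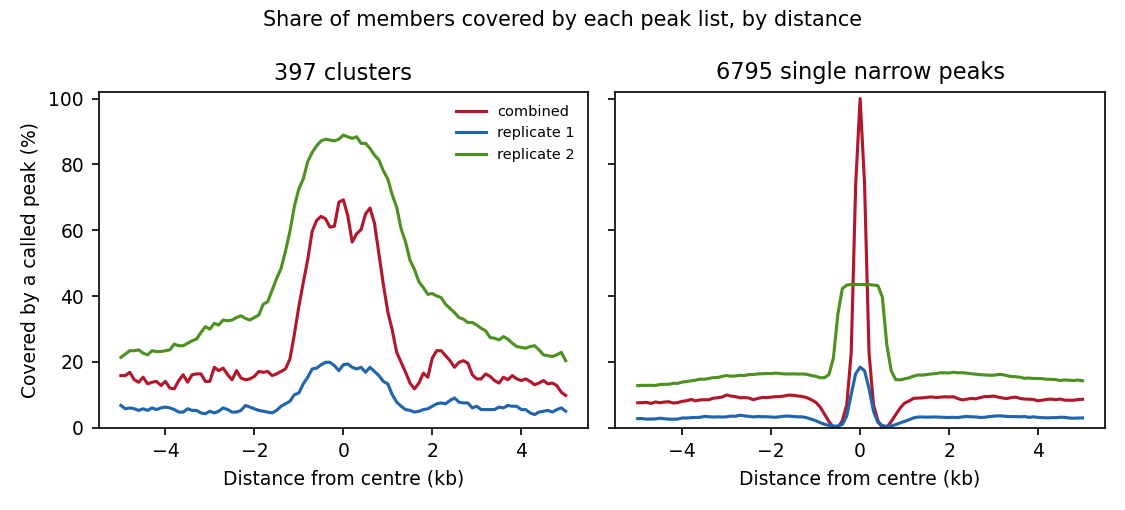
Share of the 397 clusters and the 6795 single narrow peaks covered by a called peak of each list, in percent, by distance from the centre in kb, in steps of 100 bp. Replicate 2 covers 88.9% of cluster centres and 43.6% of single peak centres, and replicate 1 covers 19.1% and 18.4%; the dip of the combined list beside single peaks is set by the rule.

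Replicate 1 called separate peaks within part of the clusters, where replicate 2 had 2 peaks on 21 (5.29%). Replicate 1 had no peak on 165 clusters (41.6%, interval 36.8 to 46.5), exactly 1 on 152 (38.3%, interval 33.6 to 43.2) and 2 or more on 80 (20.2%, interval 16.5 to 24.4). For pairs of narrow peaks these shares were 63.1%, 30.5% and 6.41%. For chains with a wide peak they were 5.25%, 27.9% and 66.9%, so separate replicate 1 peaks were not particular to clusters. Span was not matched in this comparison. Only 23 clusters (5.79%) held 3 or more replicate 1 peaks, and in 16 (4.03%) every cluster peak overlapped one. Clusters without a replicate 1 peak had a median highest score of 9.85, those with 1 a median of 31.6 and those with 2 or more a median of 41.9. In the 152 clusters with exactly 1 replicate 1 peak, that peak overlapped the highest-scoring combined peak in 138 (90.8%, interval 85.1 to 94.4), while such peaks make up 27.5% of the peaks in those clusters. The highest-scoring cluster peaks are wider than the others (median 497 against 280.5 bp), and both lists appear to share libraries. This overlap is therefore a description. Replicate 1 overlapped 54.4% of the highest-scoring cluster peaks (216 of 397, interval 49.5 to 59.2) and 15.1% of the remaining ones (157 of 1040, interval 13.0 to 17.4). In replicate 2 these shares were 90.2% (interval 86.9 to 92.7) and 84.4% (interval 82.1 to 86.5). The share of clusters with 2 or more replicate 1 peaks was 10.2% with a width limit of 700 bp, 38.9% with none and 51.7% in the highest-scoring 50% of the list.

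Both replicates met 217 clusters (54.7%, interval 49.7 to 59.5), with a median highest score of 35.1. Replicate 2 alone met 144 (36.3%, interval 31.7 to 41.1; median highest score 10.3), replicate 1 alone met 15 (3.78%; 8.17), and neither met 21 (5.29%; 6.20). The clusters that neither replicate called were thus among the weakest, with no peak above a score of 12.4. Replicate 1 met 51.0% of clusters of 3, 65.9% of those of 4, 78.4% of those of 5 and 81.8% of the 22 with 6 or more. The shares within 1 replicate 2 peak were 73.1% for 3 peaks, 74.1% for 4, 56.8% for 5 and 40.9% (9 of 22, interval 23.3 to 61.3) for 6 or more. Larger clusters are longer (median span 1584 bp for 3 peaks and 4172.5 bp for 6 or more), and the part of length in these shares was not tested.

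When the same rule was applied inside each replicate list, the clusters were mostly other sites or absent. In replicate 1, where 89.2% of peaks are under 1000 bp wide, it gave 62 clusters with 219 peaks, of up to 8 peaks each. Of these 62, 11 met a cluster of the combined list, 50 met a combined chain or single peak with a width of 1000 bp or more, and 1 met neither. Taken peak by peak, only 10.3% of all replicate 1 peaks (338 of 3295) met a combined cluster. The 11 of 62 therefore do not show that replicate 1 clusters avoid those of the combined list. In replicate 2 the rule gave none, since only 217 of 4006 peaks (5.42%) are under the width limit. Without the limit, replicate 2 had 65 chains of 3 or more peaks. The name of narrow clusters therefore describes the combined list and not the replicate 2 list.

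The clusters with most peaks showed different arrangements. The longest lay on II at 9123361 to 9132419, with 11 peaks over 9059 bp. Its scores in order were 2.91, 5.54, 5.17, 4.48, 2.75, 21.75, 38.80, 2.72, 20.66, 5.54 and 8.18. Replicate 1 had 4 peaks on it, all at the 3 combined peaks with scores above 20. Replicate 2 covered 93.1% of it with peaks of 1894 and 6837 bp.

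The cluster with 9 peaks, on IV at 14476179 to 14480807, was high throughout. Its peaks were 227 to 478 bp wide and its scores in order were 14.50, 101.45, 71.13, 75.28, 110.60, 102.36, 80.34, 63.90 and 10.49. All 7 inner peaks thus scored above 60, and the 2 end peaks were the low ones. Replicate 1 covered 95.2% of the span with 3 peaks, one of them at a score of 3100, and replicate 2 covered 98.4% with 1 peak of 4850 bp and a score of 3096.47. A score of exactly 3100 was given to 36 replicate 1 peaks and 35 replicate 2 peaks, so ranks at that value are tied. Chosen after the scores were seen, 3 clusters had a median peak score of 40 or more: this one, a cluster of 4 on II at 15138321 to 15140769 (median 95.9) and a cluster of 4 on IV at 7923936 to 7926904 (median 42.2).

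Both clusters of 8 peaks lay on IV and were unlike each other. At 13880835 to 13885177 the scores in order were 17.76, 174.06, 11.04, 2.15, 5.67, 9.16, 120.00 and 7.95. The 2 strong peaks, 668 and 774 bp wide, stood apart with weak ones between and beside them, and replicate 1 called a peak of 725 bp and one of 1000 bp at these places. Replicate 2 joined the whole cluster in 1 peak of 4921 bp. At 6974187 to 6978635 all scores lay between 4.02 and 11.64. Replicate 1 had 1 peak on it, of 407 bp at its first combined peak, and replicate 2 covered 94.8% with peaks of 2759 and 1778 bp.

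Of the 9 clusters of 7 peaks, the 2 with the longest spans are described. On I at 10032314 to 10038024, scores ran from 5.57 to 91.42, replicate 1 had 4 separate peaks and replicate 2 had 1 peak of 6384 bp over the whole. On V at 10856846 to 10862369, scores ran from 1.74 to 42.67, replicate 1 had 3 peaks and replicate 2 had peaks of 4521 and 1339 bp. In all, 4 clusters held 4 replicate 1 peaks, the most on any cluster. Beside those on I and II there was a cluster of 4 on IV at 5601253 to 5603681, with scores from 3.17 to 14.72, added after its values were seen, and a small one. On I at 11611132 to 11613002 the small one held 3 combined peaks with scores of 52.52, 23.17 and 16.54. There replicate 1 divided the site more finely than the combined list, with peaks of 320, 268, 213 and 218 bp.

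**Figure D4:**
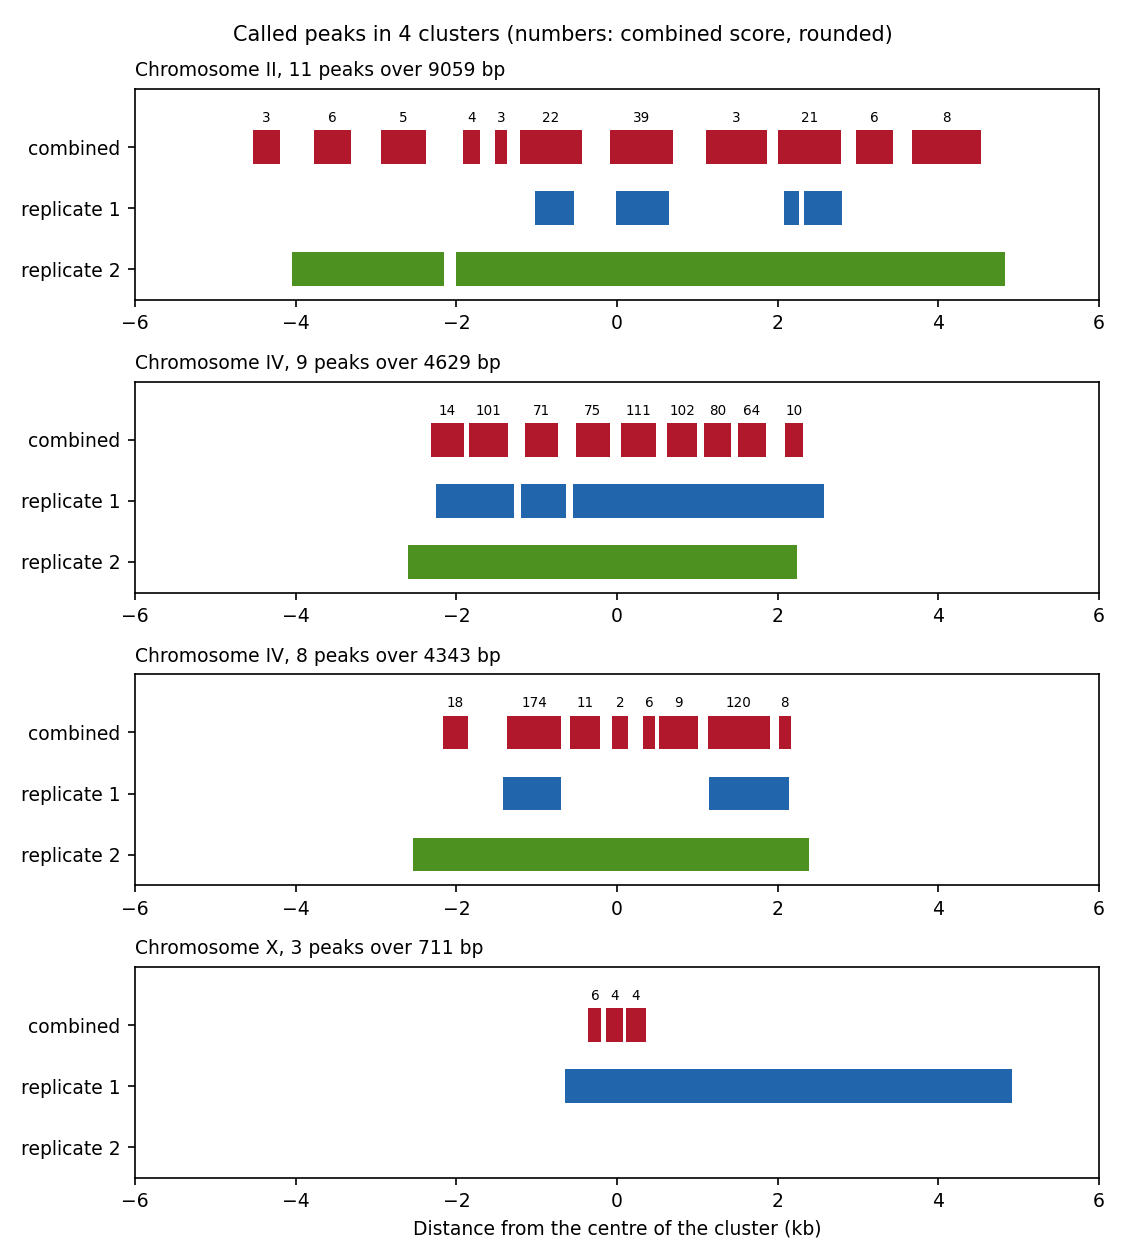
Called peaks of the combined list (top row, rounded combined score above each), replicate 1 and replicate 2 in the clusters of 11, 9 and 8 peaks and in the shortest cluster, by distance from the cluster centre in kb. Replicate 2 joins the cluster of 8 peaks in 1 peak of 4921 bp, while the shortest cluster lies in a replicate 1 peak of 5565 bp and has none in replicate 2.

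The strongest cluster peak of each chromosome mostly stood beside weak ones. On III it scored 174.79, the highest score of the nuclear list, at 13447964 to 13448628, in a cluster of 4 whose other peaks scored 2.12, 2.94 and 1.87. Replicate 1 spanned most of that cluster with 1 peak of 1889 bp, whereas the replicate 2 peak of 1299 bp met only the strong peak. On IV it was the 174.06 above. On I it scored 133.95 (cluster 2875175 to 2877046, other peaks 8.85 and 2.42), and on II 115.02 (cluster 9745614 to 9747208, others 3.41 and 7.63). On V it scored 110.42 in a cluster of 5 (4345744 to 4348335) whose other peaks stayed at or under 3.95. On X it scored 105.39 (cluster 9931439 to 9933661, others 15.56 and 6.21). On I, II, V and X replicate 1 had a peak on the strong member only, and replicate 2 overlapped every member.

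The shortest cluster lay near the left end of X, at 290098 to 290808, with 3 peaks of 162, 212 and 239 bp and scores of 5.97, 3.89 and 3.99. It lay inside a replicate 1 peak of 5565 bp with a score of 70.64, and replicate 2 had no peak there. Such sites were few: 5 clusters lay wholly within 1 replicate 1 peak, and among the 15 clusters met by replicate 1 alone 4 met a replicate 1 peak of 1000 bp or more.

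Clusters were unevenly spread over chromosomes. III had 5.88 clusters per Mb (81 clusters), II 5.17 (79), I 4.98 (75), IV 4.46 (78), V 2.39 (50) and X 1.92 (34). Single narrow peaks were spread more evenly, at 86.0 per Mb on III, 65.7 on II, 80.7 on I, 65.8 on IV, 51.9 on V and 65.3 on X. X thus had nearly the density of single peaks of II and IV but the fewest clusters. Per 100 single peaks there were 2.94 clusters on X, 4.61 on V and 6.17 to 7.88 on I to IV. The clusters took 7.40% of the peaks on X (123 of 1663, interval 6.23 to 8.75) and 13.1% of those on the autosomes (1314 of 10050, interval 12.4 to 13.7), from 10.0% on V to 15.4% on II. Chains form more readily where peaks are dense, and the part that density plays in these shares was not tested.

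In size and score the clusters of X were close to those of the autosomes. They held a mean of 3.62 peaks, within the autosomal range of 3.56 to 3.76, and the median score of their peaks was 7.29, above the 6.08 to 7.15 of the autosomes. Single narrow peaks also had their highest median score on X, at 8.465 against 7.38 (III) to 7.81 (I). The highest score of a cluster had a median of 15.4 on X and on V, below the 16.3 (III) to 20.9 (I) of I to IV. Replicate 1 overlapped 35.8% of the X cluster peaks and 20.8% (III) to 29.1% (V) of the autosomal ones, and replicate 2 overlapped 82.1% on X and 81.2% (III) to 91.0% (I) elsewhere. The share of clusters within 1 replicate 2 peak was 58.8% on X, 58.0% on V and 67.9% to 78.7% on I to IV.

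Along the autosomes, 172 of 363 clusters (47.4%, interval 42.3 to 52.5) had their midpoint in the middle part of 3 equal parts of the chromosome. The share was 40.8% for single narrow peaks (2299 of 5639, interval 39.5 to 42.1) and 44.2% for all peaks (interval 43.2 to 45.2). It was higher for clusters than for single peaks on each autosome, from 42.0% against 38.1% on III to 56.0% against 44.2% on V. On each autosome the share of all peaks lay between these. All peaks came close to clusters on III (41.8%) and on I (44.2%, clusters 45.3%), and less so on V (46.5%). On X it was 35.3% for clusters (12 of 34, interval 21.5 to 52.1) and 32.4% for single peaks (interval 29.8 to 35.2). The autosomal share was 40% in the highest-scoring 50% of the list (interval 27.6 to 53.8), a setting with 58 clusters on all chromosomes. That interval holds the whole-list shares of clusters, single peaks and all peaks, so it cannot tell them apart. In the full list the cluster share differed by whether 1 replicate 2 peak held the whole cluster. Of clusters within 1 replicate 2 peak, 53.5% lay in the middle part (138 of 258, interval 47.4 to 59.5), against 32.4% of the other clusters (34 of 105, interval 24.2 to 41.8). Replicate 2 covered many of these others in part. The 32 autosomal clusters with no replicate 2 peak gave 28.1% (9, interval 15.6 to 45.4).

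**Figure D5:**
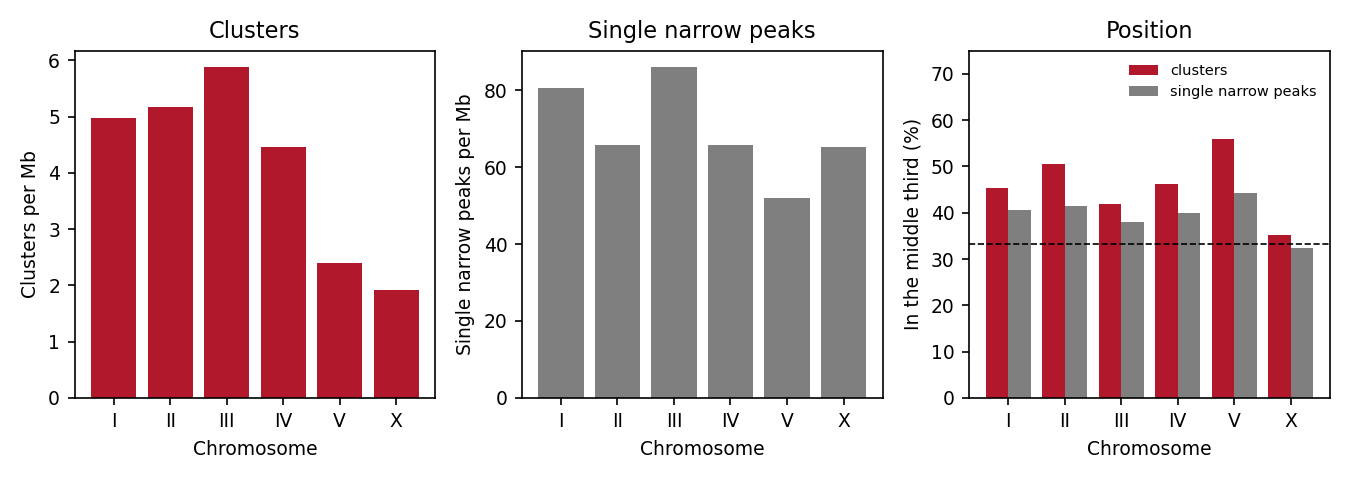
Clusters per Mb, single narrow peaks per Mb and the share of each in the middle part of the chromosome in percent (dashed line: an even spread over 3 equal parts), for the 6 nuclear chromosomes. X has 1.92 clusters per Mb, the lowest bar, beside 65.3 single peaks per Mb, close to II and IV.

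In bins of 1 Mb, the most clusters on each chromosome were 11 on II (8000001 to 9000000), 11 on III (5000001 to 6000000), 10 on I (7000001 to 8000000), 10 on V (10000001 to 11000000) and 7 on X (12000001 to 13000000). IV had 10 in each of 2 bins (5000001 to 6000000 and 8000001 to 9000000). V was the most uneven by this measure: its bin of 10 clusters stood beside a median of 2, and 6 of its 21 bins held none. Consecutive clusters lay a median of 121189 bp apart, and 48 of 391 (12.3%) were within 10 kb of the next. The closest lay 504 bp apart on IV, a cluster of 3 at 5593624 to 5595064 and one of 4 at 5595568 to 5597711, just beyond the limit that would have joined them. The nearest peak outside a cluster lay a median of 1036 bp away. All coordinates are on WormBase WS220; gene features and sequence at these sites were not analysed here.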

How the data were processed

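HTP-3 ChIP-seq peak lists were analysed, 1 for each of 2 ChIP replicates and 1 combined list; processed input files were not used here. Per the file headers, coordinates are 1-based on WormBase WS220, and per the source column the authors called replicate peaks with MACS and the combined list with MACS v2. Per the submitters' processing notes, the aligner was BWA and the build ce10. Each peak carries a score that the authors deposited, on a scale not given in the sources used here, so scores were compared only within a list. Of the control, the threshold and any pooling nothing is stated in the sources used here, and read depth is unknown.

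Intervals were computed with scipy 1.17.1 and figures with matplotlib 3.10.9, in Python 3.11.15 (pandas 2.3.3, numpy 2.4.6). Chaining and overlap were tested on simulated lists with known answers. Overlap meant at least 1 bp; shares have 95% Wilson intervals. Chromosome extent was the largest peak end in any list. Named regions were 6 clusters with most peaks (ties by span), the cluster with the strongest member on each chromosome, 3 of those with most replicate 1 peaks (ties by summed score), the densest 1 Mb bins, the shortest and longest clusters and the limits of the rule. The members and lists were chosen with earlier results of these data known. Alternatives changed the chaining distance, width limit, score range, overlap criterion, replicate peak width and middle part.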

Additional observations from a re-analysis of the deposited data

Results flagged for a closer look

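Signal appeared outside the nuclear peaks that were analysed. The combined list held 3 mitochondrial peaks, 220 and 319 bp from each other, so they chain under the distance used for clusters. The narrowest was 2137 bp wide, which keeps the chain outside the width limit. Replicate 2 had 1 mitochondrial peak and replicate 1 had 0. No group held 4 or more samples, so samples were not compared for outlying values.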

How the results depend on the processing

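Of 41 alternative values outside the mean over replicates, 17 stayed within the main value's interval (within 1.5 times for the number of clusters) and 24 moved. The number of clusters (397) was 246 when chained under 300 bp, 652 under 1000 bp, 264 with a width limit of 700 bp, 615 with none and 58 in the highest-scoring 50% of the list. The share of clusters within 1 replicate 2 peak (70.0%) was 77.2% under 300 bp, 44.2% under 1000 bp, 87.9% in the highest-scoring 50% and 0 with replicate peaks trimmed to 478 bp. The share of clusters with 2 or more replicate 1 peaks (20.2%) was 10.2% at 700 bp, 38.9% without a limit and 51.7% in the highest-scoring 50%. The share of cluster peaks in both replicates (22.8%) was 17.4% at 700 bp, 32.3% without a limit, 52.2% in the highest-scoring 50%, 20.7% by midpoint, 18.9% with 50% of the peak covered and 10.1% with trimmed replicate peaks. The median score (6.69) was 6.33 at 700 bp, 7.83 without a limit and 17.0 in the highest-scoring 50%, which that selection sets in part. In that 50%, the middle peak led in 45.1% of clusters of 3 (interval 32.3 to 58.6), against 31.2% in the full list. There 40% of autosomal clusters lay in the middle part (interval 27.6 to 53.8, which holds the 47.4% of the full list). The middle 50% of the chromosome held 68.0% of the autosomal clusters of the full list. The share of cluster peaks overlapping a replicate (mean 56.0%) was 26.0% without replicate 2, 86.0% without replicate 1 and 27.2% with trimmed replicate peaks. Its SD over 2 lists is too wide to judge stability. For moves with no reason given here, the cause was not tested. No paired analysis was possible between ChIP and input, the groups that share replicate numbers, because no input peak list was analysed here. Unknown read depth, the unstated score scale and the unstated origin of the combined list limit every comparison.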
